A study of Rattus norvegicus with 6 samples.

Results

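CpG islands are short stretches of DNA that are rich in CG dinucleotides. Many lie at gene starts and are kept free of methylation, whereas CG sites elsewhere in the genome are mostly methylated. Islands away from annotated genes are among those called orphan islands. They can mark starts of transcripts that the annotation lacks, or distant regulatory elements, and others belong to repeated sequence, and they are more often methylated in differentiated cells than islands at gene starts. Here, 285 differentially methylated regions (DMRs) in such intergenic islands were examined in brain microvascular endothelial cells (BMECs), the cells that form the wall of the blood–brain barrier.

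The 285 regions were taken from 5849 CG regions of the annotated DMR list by their annotation alone. Each carried an annotation to a CpG island (CGI) and none to a promoter, exon, intron, untranslated region, TSS or TES. The 5849 CG regions were part of 24862 annotated regions in all 3 cytosine contexts. Coordinates are those of the tables, on mRatBN7.2. Because only genes of the annotation used by the authors count, intergenic means outside those gene features and not necessarily far from a gene.

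The study asked how chronic stress alters the methylome of hippocampal BMECs. The CUMS group consisted of adult male Sprague-Dawley rats under chronic unpredictable mild stress for 8 weeks, with restraint, deprivation of food and water, cage tilt, wet bedding, cold swimming and continuous light in random order. The Ctrl group consisted of unstressed rats of the same kind kept in their home cages. The study's methods describe saline gavage for control and experimental groups of its vitamin B experiment, and whether the rats of the methylome were among them is not stated. Each group had 3 samples of CD45-/CD31+ cells sorted from the hippocampus, and no genetic modification is named for either group. Cell identity rested on the sort, because the tables hold no expression values against which endothelial markers could be checked.

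The tables give 1 methylation level per region and group, made by the authors from the 3 samples together. The level is the percentage of methylated cytosines at CG sites. No value per rat, read count or p-value was given, and the study's methods state sequencing coverage per sample only. The depth behind a single level is therefore not known, levels have no replicate error, and differences could not be compared with the variation among rats. Hypermethylated regions are those with a higher level in CUMS than in Ctrl, and hypomethylated regions those with a lower one. Every region was listed because DSS, the caller used by the authors, found a difference, so the size of a difference describes the list and was not tested again. The base sequences of the islands are not shown, since a genome of the matching assembly was not used here.

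Most DMRs in intergenic islands were hypermethylated in CUMS. Of the 285 regions, 254 (89.1%) were higher in CUMS and 31 (10.9%) were lower, compared with 80% and 20% of all CG regions. The median level over the 285 regions was 8.26% in Ctrl and 23.6% in CUMS. The median difference was 12.8 percentage points, and differences ranged from a fall of 30.3 points to a rise of 59.7 points. At least 10 points separated the groups in 179 hypermethylated regions (62.8%, against 57.9% of all CG regions) and in 25 hypomethylated regions (8.77%, against 18.2%). At least 20 points separated them in 56 hypermethylated regions (19.6%, against 22.5%) and in 11 hypomethylated regions (3.86%, against 8.99%). The share of regions with large rises was therefore near that of the whole CG list, and the share with large falls was below it.

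**Figure D1:**
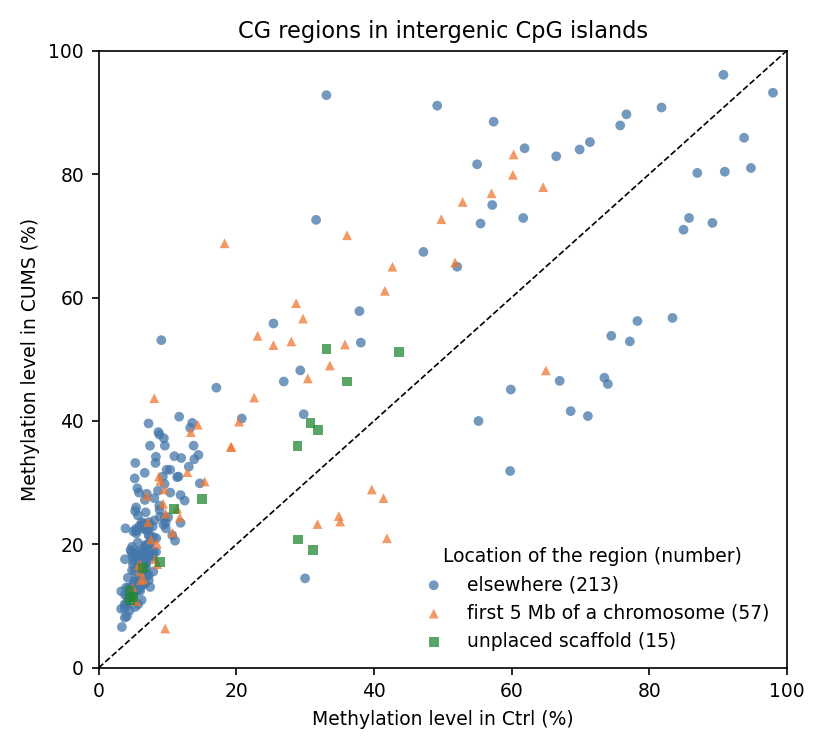
Methylation level in Ctrl (horizontal axis, %) and in CUMS (vertical axis, %) of the 285 CG regions in intergenic CpG islands, 1 point per region, coloured by location; the dashed line marks equal levels. A total of 254 points lie above the line, most of them at low Ctrl levels, and the 31 points below it lie mostly at high Ctrl levels. The levels are single group values without error bars.

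The 2 directions started from different levels. Hypermethylated regions had a median level of 7.43% in Ctrl and 23.0% in CUMS, with quartiles of 5.71% and 13.4% in Ctrl. Hypomethylated regions had a median level of 68.6% in Ctrl and 46.0% in CUMS. Regions that were nearly free of methylation in Ctrl thus made up most of the hypermethylated set. Of 171 regions with a Ctrl level below 10%, 170 were hypermethylated and 1 was hypomethylated. In those 170 regions the median level was 6.34% in Ctrl and 18.2% in CUMS, and the median ratio of the CUMS to the Ctrl level was 2.76. Few of them became largely methylated, as the highest CUMS level among them was 53.1%.

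Regions that were already methylated in Ctrl showed both directions. Of 41 regions with a Ctrl level of at least 50%, 20 were hypermethylated and 21 hypomethylated. Of 11 regions with a Ctrl level of at least 80%, 9 were hypomethylated. A level near 0% can hardly fall and a level near 100% can hardly rise, and the Ctrl level enters both the grouping and the direction, so these counts are a description.

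The direction was next compared with that of other CG regions, to see where intergenic islands stood between islands of genes and the DNA around them. Hypomethylation was more frequent in intergenic islands (10.9%) than in promoter islands, where 13 of 1355 regions (0.959%) were hypomethylated (odds ratio 12.6, 95% interval 6.50 to 24.4, Fisher's exact test, two-sided, adjusted p = 6.03e-15). It was also more frequent than in islands of gene bodies, where 48 of 1443 regions (3.33%) were hypomethylated (odds ratio 3.55, 2.21 to 5.68, Fisher's exact test, adjusted p = 5.82e-07). It was less frequent than in the intergenic open sea, DNA away from islands, their shores and genes, where 626 of 1482 regions (42.2%) were hypomethylated (odds ratio 0.167, 0.113 to 0.246, Fisher's exact test, adjusted p = 1.17e-26). The p-values were adjusted over the 3 comparisons. The hypomethylated share of intergenic islands was larger than that of promoter islands on 13 of 20 autosomes and smaller on 3. Against gene-body islands it was larger on 12 and smaller on 7, and against the open sea it was smaller on 19 of 20. On chromosomes 1 to 20 alone the odds ratio against promoter islands rose to 22.3, and among regions of at least 20 points it was 6.42. Against the open sea it was 0.300 among regions of at least 20 points and 0.260 without annotated repeats. Because neighbouring regions are not independent, the tests apply to the regions of the list and do not measure how rats vary.

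The methylation level moved with this difference. Intergenic islands held more DMRs of intermediate or high level than islands of genes. The mean of both levels was below 20% in 170 intergenic island regions (59.6%), compared with 86.4% of promoter island regions, 82.1% of gene-body island regions and 3.78% of open-sea regions. Below that limit the islands were alike in their counts, with 1 hypomethylated region of 170 in intergenic islands, 4 of 1171 in promoter islands and 11 of 1184 in gene-body islands, whereas 24 of 56 open-sea regions were hypomethylated. Between 20% and 50%, hypomethylated regions made up 16.2% of intergenic island regions, 3.68% of promoter island regions, 6.67% of gene-body island regions and 32.5% of open-sea regions. Of the 11 hypomethylated intergenic island regions in this class, 6 lay in 1 island on chromosome 3, described below. The higher share in intergenic islands therefore rested largely on that island. Between 50% and 80% the shares were 35.1% of 37 regions, 15.0% of 20 regions, 31.2% of 64 regions and 41.4% of 771 regions. The part of the level in the difference of direction was not tested.

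**Figure D2:**
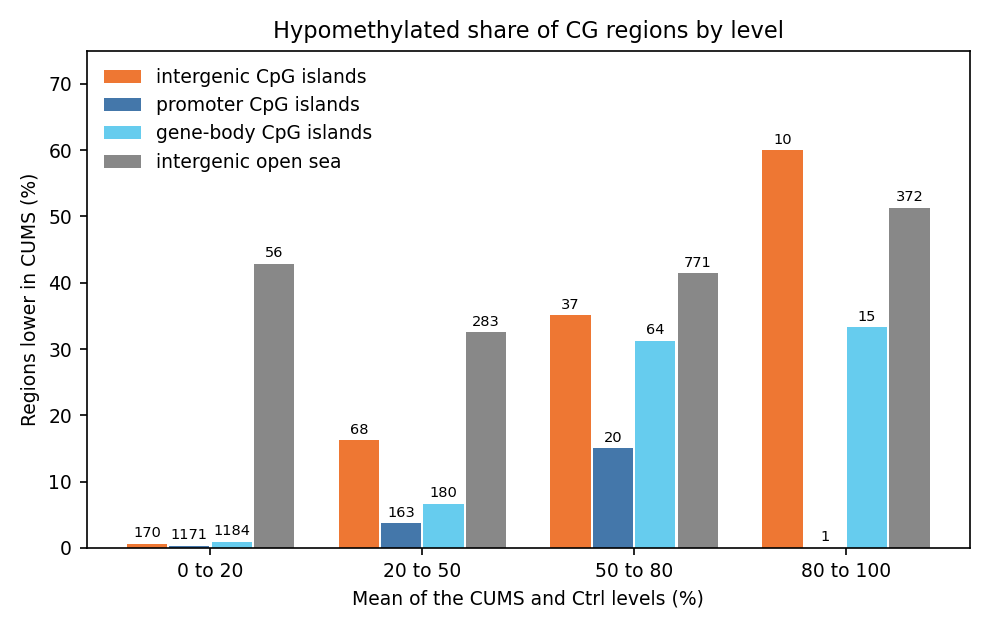
Share of CG regions that were lower in CUMS (vertical axis, %), by the mean of the CUMS and Ctrl levels (horizontal axis, %), in intergenic islands, promoter islands, gene-body islands and the intergenic open sea; the number over each bar is the number of regions in that class. In intergenic islands the share rises from 0.588% in the lowest to 60% in the highest of the 4 classes, which holds 10 regions.

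The shape of the regions was described as well. DMRs of intergenic islands had a median length of 130 bp and 29.0 measured cytosines, the same median length as in promoter islands, where the median number of cytosines was 35.0. Open-sea regions were shorter and sparser, with medians of 82.0 bp and 9 cytosines. Cytosines of CG sites on both strands numbered 21.4 per 100 bp in intergenic islands (median), compared with 26.5 in promoter islands, 26.1 in gene-body islands and 10.8 in the open sea. Within intergenic islands, the median was 22.2 per 100 bp in hypermethylated regions and 16.3 in hypomethylated regions. The median was thus lower in regions that fell. However, 6 of these 31 regions lay in 1 island on chromosome 3, with 13.2 to 15.9 per 100 bp, and they account for part of the gap. Together the 285 regions covered 49557 bp and 10755 cytosines.

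The 285 regions lay in 234 islands, of which 200 (85.5%) held a single region. Another 25 islands held 2 regions and 9 held at least 3. The islands had a median length of 742 bp, and a DMR covered a median of 17.7% of its island. In 248 cases the region lay wholly inside the island. DMRs of these islands were therefore mostly local segments and did not span the island. Where an island held more than 1 region, the regions had the same direction in 32 of 34 islands, although with 89.1% of all regions hypermethylated such agreement is frequent without any relation between neighbours. Both exceptions, on chromosome 3 and on an unplaced scaffold, are described below. In 16 islands a DMR annotated to a gene was present beside the intergenic one, and 31 of 34 such gene-annotated regions were hypermethylated.

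Island length separated the directions only loosely. In islands under 500 bp, 15 of 85 regions (17.6%) were hypomethylated. In islands of 500 bp to under 1000 bp this applied to 4 of 78 regions (5.13%), and in islands of at least 1000 bp to 12 of 122 (9.84%). Of these 12, 6 lay in 1 island of 4852 bp on chromosome 3. The shortest class also had the most regions at a Ctrl level of at least 50%, with 25 of 85, compared with 7 of 78 and 9 of 122.

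Intergenic island regions made up 2.22% (chromosome 17) to 6.92% (chromosome 2) of the CG regions of a chromosome. Chromosome 2 held 35 of 506 CG regions (6.92%), chromosome 3 held 30 of 449 (6.68%), chromosome X held 21 of 345 (6.09%) and chromosome 1 held 20 of 563 (3.55%). Chromosome 11, with few CG regions, held 3 of 133 (2.26%). Many of the regions on chromosomes 2 and 3 lay at the chromosome start. The first 5 Mb held 20 regions on chromosome 2, 14 on chromosome 3, 8 on chromosome 4 and 6 on chromosome 20. In all, 57 of 285 regions (20%) lay in the first 5 Mb of a chromosome, compared with 5.02% of promoter island regions, 3.60% of gene-body island regions and 5.60% of open-sea regions. A further 15 (5.26%) lay on unplaced scaffolds, compared with 0.664% of promoter island regions. The limit of 5 Mb was set after the positions were seen, and no test was applied.

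**Figure D3:**
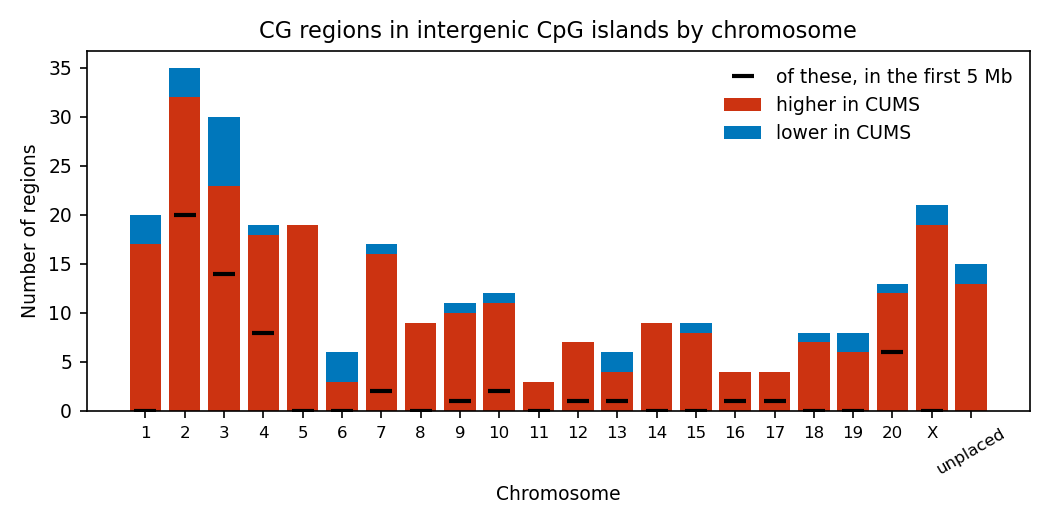
Number of CG regions in intergenic CpG islands (vertical axis) by chromosome (horizontal axis), split into regions higher and lower in CUMS; the black mark gives how many of them lie in the first 5 Mb of the chromosome. On chromosome 2 the mark is at 20 of 35 regions and on chromosome 3 at 14 of 30. The regions on unplaced scaffolds are shown together and have no mark.

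Regions at chromosome starts had higher median levels than regions elsewhere on chromosomes. Their median level was 19.2% in Ctrl and 31.0% in CUMS, compared with 7.27% and 22.6% in the 213 regions elsewhere. The 15 regions on unplaced scaffolds had the highest median in Ctrl, 28.9%, and 25.7% in CUMS. Even so, 13 of these 15 were hypermethylated and 2 hypomethylated. Their median difference was a rise of 8.01 points, because the median of each group is taken separately. Of the 57 regions, 49 were hypermethylated and 8 hypomethylated. On chromosome 2 all 20 were hypermethylated, from levels of 4.94% to 60.3% in Ctrl. On chromosome 3, 8 were hypermethylated and 6 hypomethylated, and the 6 lay in 1 island. The hypermethylated share in the 213 regions elsewhere was 90.1%, so the direction over all regions hardly depended on chromosome starts and scaffolds.

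Several of these regions neighboured ribosomal RNA genes. Ribosomal DNA is present in many copies that encode the RNA of the ribosome, and in mammals part of the copies are methylated and silent. A listed region annotated to a 5_8S_rRNA gene was the nearest gene-annotated region for 12 island regions at distances under 2 kb, all in the first 5 Mb of chromosomes 2, 3, 4 and 10. They neighboured 8 such genes, and each of their islands also held a listed CG region annotated to a gene. The 12 regions are therefore not 12 separate places. These 12 regions were all hypermethylated, with median levels of 13.7% in Ctrl and 35.6% in CUMS. The 5_8S_rRNA regions beside them rose as well, by 6.48 to 19.7 percentage points, and all 21 CG regions annotated to these genes were hypermethylated. On chromosome 4 at 2953133 to 2953578, 0.439 kb from such a gene region, the level was 57.1% in Ctrl and 76.9% in CUMS. On chromosome 10 at 168441 to 168540, 0.773 kb away, it was 18.3% and 68.8%. On chromosome 3 at 3030514 to 3031249, 1.10 kb away, it was 14.4% and 39.4%. The counts for 5_8S_rRNA genes are to be read against the whole list. Hypermethylation was found in 89.1% of intergenic island regions and in all 68 promoter island regions of the first 5 Mb of chromosomes. No trait of ribosomal DNA is therefore read from the counts. The 5_8S_rRNA gene was chosen after its values were seen. Reads of repeated sequence cannot be assigned to a single copy with certainty, so the levels given here may combine several copies.

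The island with the most DMRs was on chromosome 3 at 2262420 to 2267271, 4852 bp long. It held 7 regions with 2 directions, which together covered 60.4% of it. In the first 6 regions the level was lower in CUMS. At 2262549 to 2262904 it was 41.9% in Ctrl and 21% in CUMS, at 2264035 to 2264721 it was 34.9% and 24.6%, and at 2265418 to 2265957 it was 39.7% and 28.9%. By areaStat, the score that DSS sums over a region, these 3 ranked first among the hypomethylated regions of intergenic islands. The other hypomethylated regions of the island fell by 8.44 to 13.9 points. The last region, at 2266313 to 2267270 at the end of the island, was hypermethylated, with 36.1% in Ctrl and 70.1% in CUMS. It had 3.97 cytosines per 100 bp, the lowest density among the 285 regions, whereas the first 6 had 13.2 to 15.9. The Ctrl level was between 31.8% and 41.9% in all 7 regions. The island lay 21.5 kb from the nearest gene-annotated region, in ENSRNOG00000063301. Without this island, 91.0% of the regions were hypermethylated and the odds ratio of hypomethylation against promoter islands was 10.2.

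**Figure D4:**
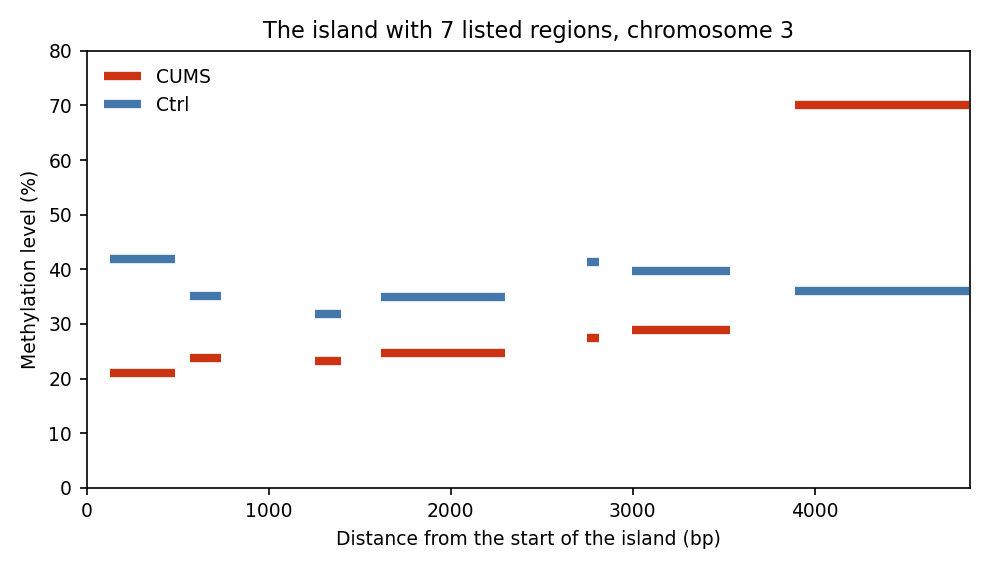
Methylation level (vertical axis, %) of the 7 CG regions in the island of 4852 bp on chromosome 3, plotted by distance from the start of the island (horizontal axis, bp); each bar spans a region, in red for CUMS and in blue for Ctrl. CUMS lies below Ctrl in the first 6 regions and above it in the last, at 70.1% against 36.1%.

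A second island with both directions lay on the unplaced scaffold JACYVU010000706.1, at 75297 to 91013. It held 5 hypermethylated regions and 1 hypomethylated region. The largest, at 77526 to 78448 with 149 cytosines, had 36.1% in Ctrl and 46.4% in CUMS and overlapped a FordPrefect element, a DNA transposon. The hypomethylated one, at 76441 to 76641, had 29.0% and 20.8%. On scaffold MU150189.1, 4 regions of 1 island were hypermethylated from lower levels, with 4.47% to 8.89% in Ctrl and 11% to 17.1% in CUMS.

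The 8 hypermethylated regions with the largest areaStat held 91 to 214 cytosines each, and 6 of them had a Ctrl level below 10%. The first lay on chromosome 20 at 10330792 to 10331472 and held 214 cytosines, the most of all 285 regions. It covered 85.6% of its island and had 6.29% in Ctrl and 23.0% in CUMS. On chromosome 14, a region at 45767132 to 45767560 covered 99.5% of its island, with 9.33% in Ctrl and 31.0% in CUMS. On chromosome 10, a region at 90888586 to 90888902 covered 55.7% of its island, with 3.90% and 22.6%. The levels of these islands remained low to intermediate in CUMS. The remaining regions of high score on chromosomes were at 2576341 to 2576766 on chromosome 3 (9.74% in Ctrl and 25% in CUMS), at 114104002 to 114104348 on chromosome 7 (7.50% and 20.2%) and at 67287988 to 67288247 on chromosome 18 (5.98% and 18.9%).

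The largest rises ended at levels above 50% in CUMS. On chromosome 3 at 169032826 to 169033438 the level was 33.1% in Ctrl and 92.8% in CUMS, a difference of 59.7 points over 48 cytosines and 73.8% of the island. On chromosome 14 at 18792443 to 18792688, a region over almost all of its island, the level was 49.2% in Ctrl and 91.1% in CUMS. On chromosome 3 at 90263886 to 90264254, where the region overlapped the repeat RNLTR2d, it was 31.6% and 72.6%. On chromosome 7 at 63212125 to 63212392 it was 9.11% and 53.1%, the highest CUMS level reached from a Ctrl level below 10%. That region lay 28.2 kb from a listed intronic region of R3hdm2.

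Among hypomethylated regions, the largest fall was on chromosome X at 15173346 to 15173453, with 71.1% in Ctrl and 40.8% in CUMS. On chromosome 7 at 111008864 to 111009049, with 61 cytosines, the level was 74.0% in Ctrl and 46.0% in CUMS. This region lay 1.93 kb from a promoter region of Csnk1e, a casein kinase of the circadian clock, and the level of that promoter region was higher in CUMS by 25.3 points. Both directions thus occurred within a short distance. On chromosome 19, 2 neighbouring regions at 50898581 to 50898845 (73.5% in Ctrl and 47.0% in CUMS) and at 50898932 to 50899017 (74.5% and 53.8%) fell together in 1 island. Large falls were also listed on chromosome 2 at 67184629 to 67184725 (59.8% and 31.9%), on chromosome 15 at 21841497 to 21841608 (68.6% and 41.6%) and on chromosome 18 at 47078946 to 47079013 (83.4% and 56.7%). The highest Ctrl level of all 285 regions was on chromosome 9 at 91484675 to 91484935, with 98.0% and 93.2%.

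Annotated repeats were rare in these islands and were mainly retroviral. Of the 285 regions, 11 (3.86%) carried a repeat, compared with 0.590% of promoter island regions, 1.39% of gene-body island regions and 72.9% of open-sea regions. Endogenous retroviruses of the ERVK class, whose long terminal repeats can act as promoters and are usually kept methylated, accounted for 9, and FordPrefect elements for 2. Of the 11 regions, 7 were hypermethylated and 4 hypomethylated. The element RLTR20A4, whose loci were named after their values were seen, was present in 5 of them and showed both directions. It rose on chromosome 5 at 148694730 to 148694783 (6.72% in Ctrl and 22.4% in CUMS) and on chromosome 2 at 26730339 to 26730459 (55.5% and 72.0%). It fell in the regions named above on chromosomes 19 and 2, and on chromosome 6 at 47828081 to 47828275 (77.2% and 52.9%). Repeats of the same family thus differed in direction between loci.

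Chromosome X, present in 1 copy in male rats, held 21 regions, of which 19 were hypermethylated. Those 19 had a median level of 9.89% in Ctrl and 32.6% in CUMS, with a median difference of 20.1 points. The 222 hypermethylated regions on chromosomes 1 to 20 had median levels of 7.26% in Ctrl and 22.2% in CUMS, and 13.2 points. The same pattern was present in promoter islands (19.3 points on chromosome X and 11.3 on chromosomes 1 to 20) and in gene-body islands (20.2 and 10.6 points). Depth on chromosome X is not known from the tables.

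Near Bcor on chromosome X, which encodes a corepressor of the Polycomb system, 6 regions formed 2 groups. At 10635367 to 10641073, 3 regions in 2 islands had levels of 8.61% to 11.6% in Ctrl and 28.7% to 38.2% in CUMS. At 10675862 to 10679148, 3 regions in 1 island of 5235 bp had 13.3% to 17.1% in Ctrl and 33.8% to 45.4% in CUMS. All 6 were hypermethylated, whereas the listed Bcor promoter region, 7.57 kb from the nearest of them, was lower in CUMS by 26.0 points. A listed CG region in an intron of Bcor was higher in CUMS by 17.2 points. The listed regions of Bcor thus went both ways. Another group on this chromosome, at 152263640 to 152265488, held 2 hypermethylated regions and 1 hypomethylated region (55.2% in Ctrl and 40.0% in CUMS) in 3 islands. The nearest gene-annotated region there, in ENSRNOG00000060839, fell by 9.49 points in CUMS.

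Neighbouring regions were also grouped by distance. Joined within 10 kb, the 285 regions formed 226 groups, of which 12 held at least 3 regions. In 9 of these 12 groups all regions had the same direction, and in each of the 9 they were hypermethylated, to be read against the hypermethylated share of 89.1% over all regions. They included 2 groups on chromosome 5, at 142324312 to 142325422 (6.92% to 11.4% in Ctrl and 14.9% to 30.9% in CUMS) and at 146036066 to 146036978 (6.90% to 10.4% and 16.1% to 28.4%). On chromosome 20, 3 regions at 6234647 to 6235200 had 5.79% to 7.27% in Ctrl and 14.5% to 18.6% in CUMS. At the start of that chromosome, 3 regions in 3 islands at 2553305 to 2560891 had 5.44% to 11.4% and 10.8% to 25.8%. On chromosome 2, groups of 3 lay at 2845002 to 2846187 (19.2% to 20.4% and 35.8% to 39.9%) and at 3317581 to 3318934 (8.52% to 11.8% and 16.8% to 31.0%).

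The surroundings of the islands were examined through the nearest listed region annotated to a gene, which need not be the nearest gene. It lay within 10 kb of 40 regions (14.0%), within 50 kb of 122 (42.8%) and within 100 kb of 184 (64.6%), with a median distance of 64.7 kb. Of the 122 pairs within 50 kb, 87 had the same direction in both regions. The direction matched in 60 of 84 pairs with a CG neighbour, 18 of 23 with a CHG neighbour and 9 of 15 with a CHH neighbour (H is any base other than G). As most regions of the list were hypermethylated, agreement is frequent without any relation between neighbours.

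Developmental transcription factors, whose genes are often surrounded by CpG islands under Polycomb control, were the only one of 4 gene lists with a member within 50 kb. They neighboured 6 regions, of which 5 were hypermethylated. The nearest to its gene region was the one by Dlx2, a factor of forebrain interneurons, at 56368209 to 56368332 on chromosome 3 (7.94% in Ctrl and 21.2% in CUMS), 5.36 kb from a promoter region that was higher by 16.5 points. By Neurog1, a proneural factor, a region at 8355489 to 8355621 on chromosome 17 had 4.94% in Ctrl and 12% in CUMS. By Sox1, a factor of neural progenitors, a region at 77149821 to 77149961 on chromosome 16 had 4.91% and 18.0%. By Pou3f2, also a neural factor, a region at 36073155 to 36073337 on chromosome 5 had 6.26% and 23.6%, and by Meis1, a homeobox factor, a region at 93152605 to 93152687 on chromosome 14 had 7.28% and 21.4%. The exception was a highly methylated region 40.8 kb from the promoter region of Tbxt, the mesoderm factor brachyury, at 52265168 to 52265230 on chromosome 1, with 93.8% in Ctrl and 85.9% in CUMS. These 6 genes were among 106 genes of the list with a listed region. In all, 86 genes were neighbours within 50 kb. The other lists were smaller, with 72, 39 and 8 genes that had a listed region. The share over all genes was not computed, so no preference for developmental factors is read from these counts.

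The other lists had no member within 50 kb. Within 100 kb, 1 of 8 protocadherin genes with a listed region was a neighbour (Pcdh1, with a region on chromosome 18 at 29974344 to 29974535, 6.50% in Ctrl and 22.7% in CUMS), as were 2 of 72 potassium and calcium channel genes (Kcnh6 and Kcnj1) and 0 of 39 genes of secreted growth factors and their modulators. Outside these lists, and chosen after its values were seen, a region on chromosome 15 at 92178222 to 92178354 lay 0.653 kb from a promoter region of the microRNA gene Mir17, which belongs to a cluster linked to cell proliferation. Its level was 8.37% in Ctrl and 21% in CUMS, and the promoter region rose by 6.84 points.

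Methylation in the other contexts was finally examined at the same places, since CHG and CHH regions were called separately. CHG regions overlapped 5 of the 285 regions (1.75%) and CHH regions of the full list overlapped 12 (4.21%). In promoter islands the shares were 3.03% and 6.64%, in gene-body islands 3.05% and 5.06%, and in the open sea 0.810% and 2.02%. The direction matched that of the CG region in 4 of 5 CHG pairs and 11 of 12 CHH pairs. Of all CHG regions 68.6% were hypermethylated, as were 64.6% of the CHH regions listed and 89.1% of the island regions, so most pairs would match by these shares alone and no relation between contexts is read from the counts. Levels in these CHG and CHH regions did not exceed 10.8% in either group. On chromosome 6 at 8849405 to 8849547, where the CG level was 4.86% in Ctrl and 19.6% in CUMS, the overlapping CHG region had 0.0296% and 9.70%, and the CHH region 0.0848% and 8.14%. On chromosome 19 at 23959727 to 23959788, with CG levels of 5.88% and 18.9%, the CHG region had 0.106% and 8.90%, and the CHH region 0.105% and 7.52%. On chromosome 3, the region at 2576341 to 2576766 overlapped a CHG region with 0.110% and 3.75% and a CHH region with 0.315% and 4.10%. At these 3 places the levels of all contexts were higher in CUMS. The exceptions in direction were a CHG region on chromosome 12, which overlapped the region at 43140533 to 43140635 (3.76% in Ctrl and 0.0669% in CUMS, against CG levels of 7.88% and 18.4%), and a CHH region on chromosome 2 beside the region at 2846050 to 2846187 (6.65% and 0.647%, against 19.3% and 35.8%).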

How the data were processed

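DNA of sorted hippocampal BMECs from 3 CUMS and 3 Ctrl samples was treated with TET2 and APOBEC3A, which leave methylated cytosines to be read as C, and sequenced. Per the study's methods and the submitters' processing notes, reads were checked with FastQC 0.11.3, trimmed with fastp 0.20.0, aligned with Bismark 0.16.3 to mRatBN7.2 and compared with DSS. The authors deposited each methylation level as a fraction from 0 to 1 per region and group, which is given here in percent. The authors' deposited score, areaStat, is the sum of DSS statistics over a region and was used only for ranking. Incomplete deamination raises all levels. The study's methods state a minimum difference of 10 percentage points, which the listed regions do not all reach; all were kept.

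Rows of the annotation table were joined by position and context. Direction by location was tested with Fisher's exact test in scipy 1.17.1 (two-sided, Benjamini-Hochberg over 3 comparisons). The functions were tested on simulated data. Samples were grouped by their titles. Overlap required 1 bp. Island coordinates are those of the table. The authors' gene-profile table was not used. Regions named were the 8 of each direction with the largest absolute areaStat, the 5 with the largest difference, groups of at least 3 within 10 kb, up to 5 that overlap CHG or CHH regions of the reduced list, and neighbouring genes within 50 kb or in 4 lists of gene families. The 5_8S_rRNA neighbours, the repeat loci, the neighbouring pair on chromosome 19 and the CHH region on chromosome 2 were named after their values were seen. Alternatives covered size of difference, cytosines, length, chromosomes, repeats, merging, overlap and distance. The regions and lists were chosen with earlier results of these data known.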

Additional observations from a re-analysis of the deposited data

How the results depend on the processing

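No paired analysis was possible because levels of single samples were not used here and each group has 1 level per region. For the same reason no fit could leave out a replicate. Over 65 alternative values of 11 results, none turned in direction and 7 values without a test moved, a share by leaving its 95% Wilson interval (85% to 92.2%, counting error only) and other values by changing over 1.5 times. The Fisher tests were judged by direction and threshold. Of their 30 alternative odds ratios, 4 also changed by over 1.5 times: 22.3 on chromosomes 1 to 20 and 6.42 at 20 points against promoter islands, and 0.300 at 20 points and 0.260 without repeats against the open sea. The hypermethylated share was 83.6% among regions of at least 20 points. CHG regions were found at 9 regions after widening by 500 bp. CHH regions were found at 7 regions when at least 50% of the shorter region had to overlap, at 39 after widening by 500 bp and at 2 in the reduced list, which holds fewer CHH regions. Gene-annotated regions lay within 10 kb of 40 regions and within 100 kb of 184, compared with 122 within 50 kb. All Fisher tests kept their direction and adjusted p below the threshold of 0.05 under the 10 alternatives run for them, with the largest adjusted p (0.0224) against gene-body islands at 20 points. Leaving out scaffolds and chromosome starts, keeping 1 region per island and leaving out the island on chromosome 3 were chosen after the data were seen. The depth of single regions, and so the error of each level, is not known.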
